A study of Mus musculus with 4 samples.

Results

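Interferon-stimulated genes, the antiviral genes that cells switch on when interferon binds its receptor, were compared between parthenogenetic haploid and parthenogenetic diploid mouse embryonic stem cells (ESCs). The group was a list of 36 named genes: the receptor genes Ifnar1 and Ifnar2, genes of the signalling chain, sensors of foreign RNA, and the antiviral effectors they lead to. Probes were assigned by matching the RefSeq accession on the array to a gene, and the brightest probe stood for each gene. A probe was found for 34 of the 36 genes, among 19744 named genes on the array. Mx1 and Mx2, antiviral GTPases, were matched to no probe and are not analysed here.

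The data were 2 samples of haploid ESCs, which carry a single maternal chromosome set, and 2 samples of diploid ESCs. All 4 samples were female cells derived from unfertilised eggs, so both groups lack a paternal genome. Each sample came from a cell line numbered 1 or 2 in its group, the labels give no treatment, passage or feeder layer, and the series states that 2 independent experiments were made per cell type. Total RNA of each sample, labelled with Cy3, was read on a separate 1-colour Agilent array. The share of cells that were still haploid in the haploid cultures is not given in the labels. A level is the log2 processed signal minus the log2 of that array's 75th percentile, so 0 marks the 75th percentile and most probes lie below it. A difference is the haploid mean minus the diploid mean of these levels, with its standard error (SE) and n = 2 per group. The SE is that of the limma fit, in which each gene's variance is drawn toward a value estimated over all features. It is therefore not the spread of that gene's own arrays alone.

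In the type I pathway, interferon alpha or beta binds a receptor made of IFNAR1 and IFNAR2, the kinases JAK1 and TYK2 are activated, and a complex that holds STAT2 and IRF9 binds DNA. That complex recognises the interferon-stimulated response element, a pair of GAAA blocks, in front of its targets. Pluripotent cells are known for a weak interferon response and for a set of such genes, the Ifitm family among them, that they express without being infected.

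The letters of this element were searched for in the promoters of the group. Promoters of 3 genes are shown, as RefSeq sequence of build GRCm38.p6 running 5′ to 3′ on the gene's strand, with 250 bases before and 50 after the transcription start. Capitals mark the letters GAAA, any 2 bases and GAAA, or their reverse complement, TTTC, any 2 bases and TTTC. The first belongs to Isg15, whose level was higher on both haploid arrays, the second to Rsad2, whose level was lower on both, and the third to Ifit1, whose probe no array detected well above background.
Isg15, chr4:156200769-156201068, minus strand: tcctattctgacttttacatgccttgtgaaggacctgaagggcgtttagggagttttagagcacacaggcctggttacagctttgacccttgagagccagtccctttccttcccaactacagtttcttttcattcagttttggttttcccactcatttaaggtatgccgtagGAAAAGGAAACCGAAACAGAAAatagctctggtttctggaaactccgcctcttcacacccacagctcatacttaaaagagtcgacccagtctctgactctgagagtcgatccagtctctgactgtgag
Rsad2, chr12:26456403-26456702, minus strand: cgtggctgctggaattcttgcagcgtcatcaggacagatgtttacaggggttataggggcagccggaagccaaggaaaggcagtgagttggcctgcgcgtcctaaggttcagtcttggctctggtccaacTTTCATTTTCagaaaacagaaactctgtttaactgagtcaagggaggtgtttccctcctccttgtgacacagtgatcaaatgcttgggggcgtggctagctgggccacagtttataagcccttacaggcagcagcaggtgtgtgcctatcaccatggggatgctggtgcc
Ifit1, chr19:34640639-34640938, plus strand: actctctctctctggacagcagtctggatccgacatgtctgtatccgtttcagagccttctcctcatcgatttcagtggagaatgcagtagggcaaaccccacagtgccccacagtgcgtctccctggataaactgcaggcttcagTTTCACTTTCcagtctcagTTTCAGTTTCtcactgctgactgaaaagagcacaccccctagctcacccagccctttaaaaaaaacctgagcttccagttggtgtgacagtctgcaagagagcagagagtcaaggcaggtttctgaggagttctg

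Isg15 holds 3 overlapping matches, starting between 78 and 66 bases before the start. Rsad2 holds 1 match, starting 120 bases before it, and Ifit1 holds 2, starting 104 and 85 bases before it. The promoter table covered 28 of the 36 genes, and 13 of them (46.4%) held this spaced GAAA pair on either strand, against 3.99% of all 27025 genes in the table. These were Bst2, Ddx58, Eif2ak2, Gbp2, Ifih1, Ifit1, Ifit3, Ifitm2, Ifitm3, Isg15, Oas1a, Rsad2 and Stat2. The letters TTC, any 3 bases and GAA, which read the same on both strands and describe the gamma-activated site bound by STAT dimers, stood in 9 of the 28 (32.1%) and in 9.55% of all genes. Parp14, Rtp4, Dhx58, Oas2, Mx1, Mx2, Zbp1 and Usp18 were not among the promoters used. The spaced GAAA pair stood in the windows of genes with a positive difference, a negative difference and no detected signal. In Ifih1, Eif2ak2, Ddx58 and Ifitm3 its matches began after the transcription start. A match describes the letters in this window only.

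A subset of these genes had higher levels on both haploid arrays, while the receptor subunit Ifnar2, the transducers and the sensor Ddx58 differed little. The largest differences were those of Oasl2, Rtp4, Usp18, Zbp1, Ifitm1 and Isg15, at 0.92 to 1.56 on the log2 scale. Rsad2 was the exception, with a difference of -1.11. None of the 27 tested genes passed the test (limma, Benjamini-Hochberg adjustment over all features, threshold 0.05), against 0.111% of the 17962 features compared. The smallest adjusted p of the group was 0.12, for Rsad2. At an unadjusted p under 0.05 there were 9 genes with a positive difference, where 6.79% of all features had one, and 1 with a negative difference, where 4.92% did. With a variance prior that follows signal and is robust to outliers, 5 genes passed, against 2.37% of all features. They were Rtp4, Ifitm1, Zbp1, Usp18 and Oasl2, all higher in haploid cells. Of these 5, Oasl2 was well above background on neither diploid array.

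Of the 34 genes with a probe, 27 were detected (well above background by the scanner software) on each array of 1 group or both and were tested. Of these, 25 were well above background on all 4 arrays. Oasl2 entered through the haploid arrays alone, and Rsad2, missed on 1 haploid array, through the diploid arrays alone. These 27 are therefore a selected set, and their counts describe them without testing the group. Each count of higher genes, here and above, includes Oasl2, and each count of lower genes includes Rsad2. Differences were above 0 for 20 of the 27, against 53.2% of all features. They were 0.5 or more for 7 (7.84% of all features) and -0.5 or less for 1 (6.19%). The 2 haploid values lay above both diploid values for 13 genes (26.0% of all features) and below both for 2 (20.9%), and the groups overlapped for the other 12. The median difference was 0.21, beside 0.02 over all features. It was 0.10 without diploid replicate 2 and 0.33 without haploid replicate 2, and lay between 0.12 and 0.19 when the scaling or the background correction was replaced.

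**Figure D1:**
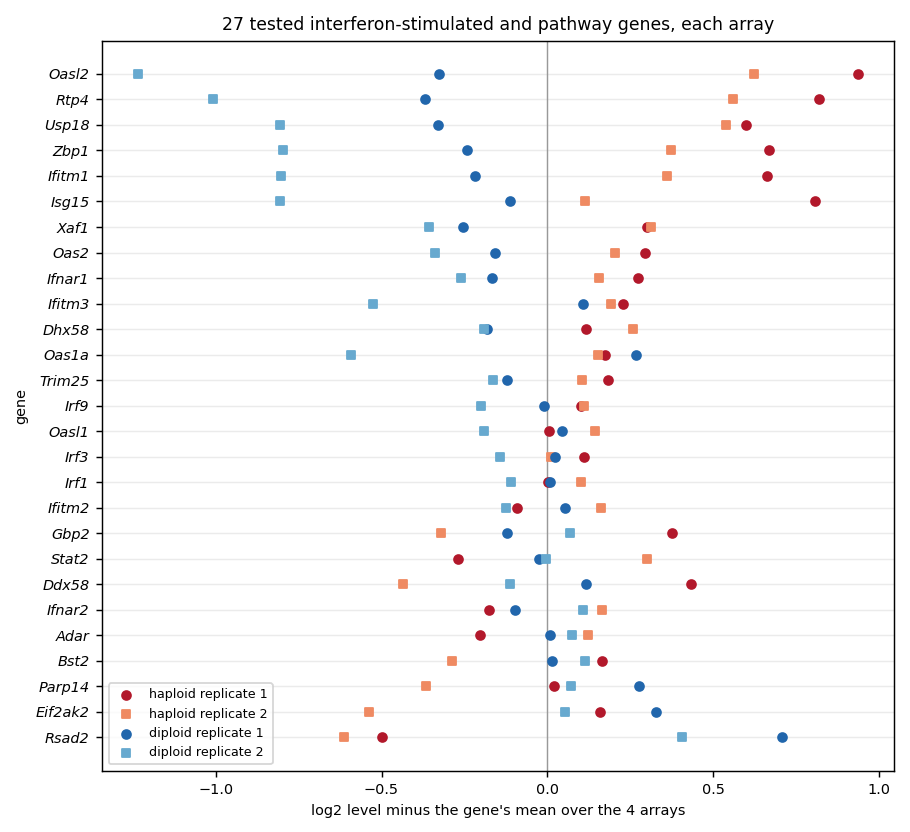
Log2 level of each of the 27 tested genes on each array, minus that gene's mean over the 4 arrays; rows are genes, ordered by the haploid minus diploid difference, and red and blue points are haploid and diploid arrays. In the upper rows both haploid points lie right of both diploid points and diploid replicate 2 lies farthest left, while the middle rows overlap and Rsad2 at the bottom is reversed.

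The receptor genes came first in the pathway. Ifnar1, which encodes the subunit that carries TYK2, had log2 levels of -1.70 and -1.82 on the haploid arrays, against -2.14 and -2.23 on the diploid arrays. The groups did not overlap, and the difference was 0.43 ± 0.17 (SE, adjusted p = 0.413). Its other 2 probes ran the opposite way, with differences of -0.36 and -0.33, so the direction for Ifnar1 depends on the probe. Ifnar2, the subunit with the higher affinity for interferon, had levels of -0.28 and 0.06 in haploid cells, against -0.20 and 0.00 in diploid cells, and the groups overlapped.

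Neither Stat2 nor Irf9 separated the groups by much. Stat2, which brings the activation domain, had log2 levels of -0.24 and 0.33 in haploid cells, against 0.00 and 0.02 in diploid cells. Irf9, which makes most of the DNA contacts, had levels of 0.05 and 0.06 in haploid cells, against -0.06 and -0.25 in diploid cells. The Irf9 groups did not overlap, with a difference of 0.21 ± 0.17. Jak1 differed by -0.20 ± 0.17 and Tyk2 by -0.29 ± 0.21 (adjusted p = 0.659 and 0.612).

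Among the interferon regulatory factors, Irf3, which switches on interferon genes once a sensor fires, had log2 levels of 3.52 and 3.42 in haploid cells, against 3.44 and 3.27 in diploid cells. Its groups overlapped. Irf1, an activator that also acts downstream of interferon gamma, differed by 0.10 ± 0.17. Irf7, the factor that amplifies interferon production and is induced by it, was well above background on diploid replicate 2 alone. Its levels were -6.11 and -5.62 in haploid cells, against -5.72 and -4.78 in diploid cells, and it was not tested.

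The sensors of foreign nucleic acid behaved unequally. Zbp1, which binds Z-form nucleic acid and can trigger necroptosis, had log2 levels of -0.92 and -1.22 in haploid cells, against -1.83 and -2.39 in diploid cells. The lower haploid value exceeded the higher diploid value by more than the gap within either group. The difference was 1.04 ± 0.24, or 2.05-fold (adjusted p = 0.195), and 0.76 to 1.32 with 1 array left out. A dimmer Zbp1 probe, well above background on 1 array, differed by 0.12. Dhx58, the LGP2 helicase that tunes the other sensors, had levels of -3.81 and -3.67 in haploid cells, against -4.10 and -4.11 in diploid cells, a difference of 0.37 ± 0.17. Ddx58, the RIG-I sensor of RNA ends, had levels of 2.73 and 1.86 in haploid cells, against 2.41 and 2.18 in diploid cells. Both Ddx58 diploid values lay between the haploid ones, and its second probe differed by 0.45. Ifih1, the MDA5 sensor of long RNA, was detected on no array.

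The ISG15 system held some of the larger differences. Isg15, a ubiquitin-like protein that is joined to other proteins after interferon, had log2 levels of -0.02 and -0.71 in haploid cells, against -0.94 and -1.63 in diploid cells. All haploid values were higher, but the arrays of each group lay 0.69 apart. The difference was 0.92 ± 0.32, or 1.89-fold (adjusted p = 0.354), and 0.57 to 1.26 with 1 array left out. A second Isg15 probe, well above background on no array, differed by 0.11. Usp18, the protease that removes ISG15 and also damps the interferon receptor, had levels of -2.43 and -2.49 in haploid cells, against -3.36 and -3.84 in diploid cells. Its haploid arrays lay 0.06 apart, and the difference was 1.14 ± 0.21, or 2.20-fold (adjusted p = 0.142). Trim25, a ubiquitin ligase that activates RIG-I and can attach ISG15, had levels of 4.32 and 4.24 in haploid cells, against 4.01 and 3.97 in diploid cells. The Trim25 groups did not overlap, with a difference of 0.29 ± 0.17 (adjusted p = 0.53).

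The Oas genes and their Oasl relatives share chromosome 5. OAS proteins make the second messenger that activates RNase L when double-stranded RNA is present, while the OASL proteins resemble them. Oasl2 had log2 levels of -3.24 and -3.55 in haploid cells, against -4.50 and -5.41 in diploid cells. It was well above background on both haploid arrays and on neither diploid array, so no fold is given. The haploid mean was -3.39 and the diploid mean -4.95, and the fit gave a difference of 1.56 ± 0.32 (adjusted p = 0.172). With values under a common floor raised to it, the difference was 1.16. The difference was 1.11 without diploid replicate 2.

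Oas2 had log2 levels of -0.46 and -0.55 in haploid cells, against -0.92 and -1.09 in diploid cells, with a difference of 0.50 ± 0.17 (adjusted p = 0.351). Its groups did not overlap. Oas1a had levels of 4.83 and 4.81 in haploid cells, against 4.93 and 4.07 in diploid cells, so its difference of 0.33 ± 0.29 came from diploid replicate 2. Without that array it was -0.10. Oasl1, which in mouse restrains translation of Irf7, differed by 0.15 ± 0.18 with overlapping groups. Oas1a has close relatives beside it on the chromosome, and whether the probes also bind their transcripts was not tested.

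Of the RNA-binding effectors, the Ifit genes were near or under the limit of detection. They encode proteins that hold back translation of viral RNA and sit together on chromosome 19. Ifit1 and Ifit2 were detected on no array, and Ifit3 on diploid replicate 2 alone, with log2 levels of -4.65 and -6.06 in haploid cells, against -4.81 and -4.97 in diploid cells. Eif2ak2, the kinase PKR that stops translation when it binds double-stranded RNA, had levels of -3.16 and -3.86 in haploid cells, against -2.99 and -3.27 in diploid cells. Its difference was -0.38 ± 0.27, and -0.03 without haploid replicate 2. Adar, which edits adenosine in double-stranded RNA, differed by -0.08 ± 0.19, and its second probe by -0.30.

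The membrane-bound restriction factors had differences from -1.11 for Rsad2 to 1.02 for Ifitm1. Ifitm1, of the family that blocks fusion of viruses with the cell, had log2 levels of 3.71 and 3.40 in haploid cells, against 2.83 and 2.24 in diploid cells. The groups did not overlap, and the difference was 1.02 ± 0.25, or 2.03-fold (adjusted p = 0.21), with a range of 0.73 to 1.31 when 1 array was left out. Its neighbours on chromosome 7 did not share this size of difference. Ifitm3 had levels of 4.22 and 4.19 in haploid cells, against 4.10 and 3.47 in diploid cells. Its difference was 0.42 ± 0.24, and 0.10 without diploid replicate 2. Ifitm2 had levels of 4.66 and 4.91 in haploid cells, against 4.81 and 4.63 in diploid cells, with no separation. Differences between the Ifitm genes were not tested against each other.

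Rsad2 ran the other way. It encodes viperin, which makes a chain-terminating nucleotide against viral polymerases. Its log2 levels were -4.68 and -4.80 in haploid cells, against -3.48 and -3.78 in diploid cells. Both haploid values lay well below both diploid values, and haploid replicate 1 was not well above background. The difference was -1.11 ± 0.19 (adjusted p = 0.12), -0.98 with values under a common floor raised to it, and -1.26 to -0.96 with 1 array left out. Cmpk2, the kinase gene that is the neighbour of Rsad2, is induced with it in many cells. It differed by -0.85 ± 0.20 (adjusted p = 0.203), with its second probe at -0.64. Both Cmpk2 probes were well above background on 3 of the 4 arrays. Like Rsad2, Cmpk2 was missed on 1 haploid array and was tested through the diploid arrays alone. Bst2, tetherin, which holds budding virus at the cell surface, differed by -0.13 ± 0.21 with overlapping groups.

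Other effectors included Rtp4, with the largest difference among the genes of the group that were detected on all 4 arrays. Rtp4, a chaperone of receptors that also binds RNA, had log2 levels of -1.10 and -1.36 in haploid cells, against -2.29 and -2.93 in diploid cells. The groups lay well apart, with a difference of 1.38 ± 0.25, or 2.60-fold (adjusted p = 0.139), and 1.06 to 1.70 with 1 array left out. Xaf1, a partner of the apoptosis inhibitor XIAP, had levels of 0.28 and 0.30 in haploid cells, against -0.27 and -0.37 in diploid cells. Its replicates lay close together, and the difference was 0.61 ± 0.17 (adjusted p = 0.246). A dimmer Xaf1 probe, well above background on 1 array, differed by 0.34 with overlapping groups. Parp14, an ADP-ribosyltransferase, had levels of -2.73 and -3.12 in haploid cells, against -2.48 and -2.68 in diploid cells, a difference of -0.34 ± 0.21. Gbp2, a GTPase that attacks vacuoles holding pathogens, overlapped between groups with a difference of 0.05 ± 0.26. Ifi44 was detected on no array, and Tap1, a subunit of the peptide transporter of antigen presentation, was detected on 1 array of each group.

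The background correction changed the size of several of these differences. With local background modelled by normexp in place of the scanner software's own subtraction, the differences were 0.12 for Rtp4, 0.17 for Zbp1, 0.34 for Isg15, 0.09 for Oas2, -0.33 for Usp18, -0.60 for Oasl2 and -0.41 for Ifnar1. Ifitm1 was at 1.34 and Rsad2 at -1.15 in that setting. With 9 spots of high local background left out of the same correction, a setting chosen after seeing the data, they were 0.94 for Rtp4, 0.79 for Zbp1, 0.78 for Isg15, 0.67 for Usp18, 0.64 for Oasl2 and 0.97 for Ifitm1. Rsad2 was at -0.21 there.

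**Figure D2:**
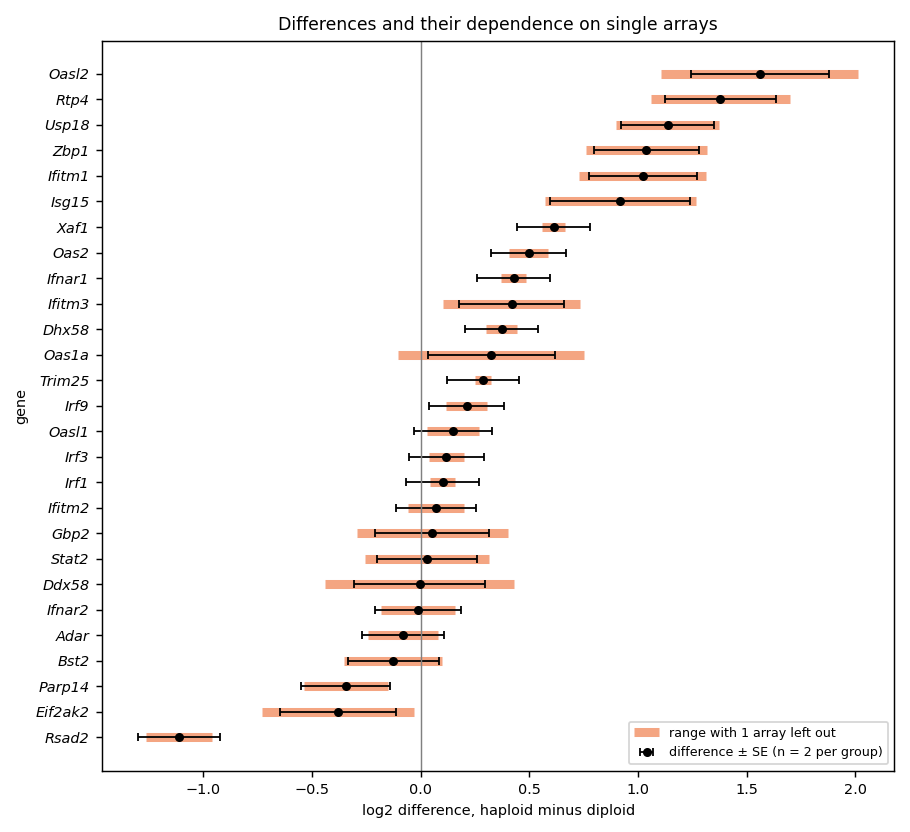
Haploid minus diploid log2 difference of each tested gene; points and bars give the difference ± SE (n = 2 per group) and the wide band gives the range over the 4 fits that leave out 1 array. The bands of the upper 9 genes, Oasl2 to Ifnar1, stay above 0 and that of Rsad2 stays below 0. Their groups do not overlap, so these bands cannot cross 0. The bands of 8 other genes, Oas1a among them, cross it.

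The 2 diploid arrays lay apart for some, not all, of the genes that were higher on both haploid arrays. Diploid replicate 2 was the lowest of the 4 arrays for 18 of the 27 tested genes, against 34.6% of all features. It was lowest for all 9 genes with a positive difference at an unadjusted p under 0.05, a choice that itself puts the lowest value on a diploid array, and for 68.9% of the 1220 features chosen the same way. Among those 9, diploid replicate 1 lay 0.09 to 0.91 above diploid replicate 2. The median gap between the diploid arrays was 0.19 over the 27 genes and 0.03 over all features, and between the haploid arrays, replicate 1 minus replicate 2, it was 0.09 and -0.03. Without diploid replicate 2 the differences of these 9 ran from 0.38 for Ifnar1 to 1.11 for Oasl2. Their sign could not turn there, because both haploid values lay above both diploid values for all 9.

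Further genes of the pathway were read from lists of ligands, signalling genes, sensors, regulators and other targets, none of whose members passed the adjusted test. Of the interferon ligands, 16 of 21 had a probe and 7 were tested. Ifnb1, the first interferon made by most infected cells, was detected on no array, with log2 levels of -5.89 and -6.43 in haploid cells, against -6.91 and -7.67 in diploid cells. The median difference of the 7 was 0.05. Ifna2 differed by 0.61 ± 0.21, while its other probe, below background, differed by -0.80. Ifna14 and Ifnab, of the same family, differed by 0.27 ± 0.17 and -0.19 ± 0.17. Receptors and JAK-STAT genes had a median of 0.03 over 11 tested genes, of which 4 belong to the main group, and Ifngr2, a chain of the interferon gamma receptor, differed by 0.20 ± 0.16.

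Nucleic acid sensors and adaptors had a median of 0.06 over 16 tested genes. Sting1, the adaptor of cytosolic DNA sensing, had log2 levels of -0.56 and -0.69 in haploid cells, against -1.56 and -1.65 in diploid cells. Replicates were close in both groups, and the difference was 0.98 ± 0.17 (adjusted p = 0.124). Tlr7, an endosomal RNA receptor, differed by 0.43 ± 0.19. Negative regulators had a median of -0.08 over 13 tested genes, among them Socs1, a JAK inhibitor, at 0.35 ± 0.17 and Ptpn6, a phosphatase, at -0.42 ± 0.19.

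Other interferon-stimulated genes gave a mixed picture, with 19 of 34 tested genes above 0 and a median of 0.14. At an unadjusted p under 0.05, 7 had a positive difference (6.79% of all features) and 4 a negative one (4.92%). With normexp on all spots the median of this list was -0.29. Isg20, an RNA exonuclease, had log2 levels of 2.71 and 2.82 in haploid cells, against 0.63 and -0.18 in diploid cells. Its difference was 2.55 ± 0.28, or 5.84-fold (adjusted p = 0.0529), although a second probe, well above background on 2 arrays, differed by -0.41. Cxcl10, a chemokine that attracts T cells, had levels of -1.99 and -2.03 in haploid cells, against -3.38 and -3.53 in diploid cells, a difference of 1.45 ± 0.17 (adjusted p = 0.0582). With 1 array left out, the difference was 2.14 to 2.95 for Isg20 and 1.38 to 1.52 for Cxcl10. Antigen presentation genes, which interferon also induces, had a median of -0.01, with 5 of 15 tested genes above 0. B2m, the light chain of MHC class I, differed by 0.43 ± 0.17, Tapbpl, a peptide editor, by -0.78 ± 0.21 and Psmb8, of the immunoproteasome, by -0.34 ± 0.17.

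**Figure D3:**
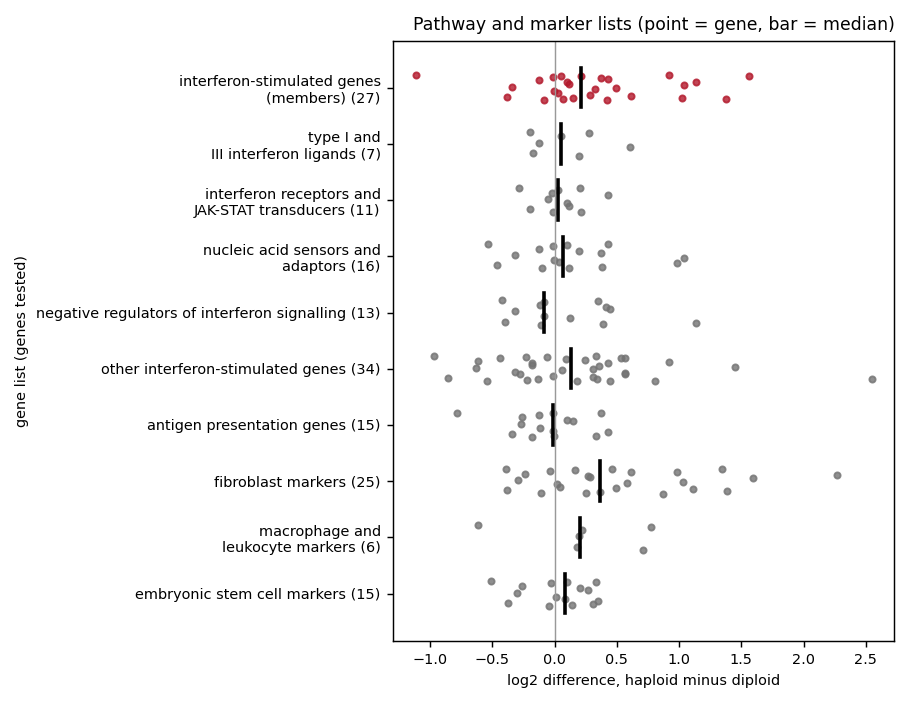
Haploid minus diploid log2 difference of each tested gene in the interferon-stimulated group (red) and in the other pathway and marker lists (grey), with a black bar at the median and the number of tested genes in parentheses; some genes stand in 2 lists. The medians lie between -0.08 and 0.37, and the interferon-stimulated group spreads from -1.11 to 1.56.

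Markers of cell types were read on the same scale. All 15 ESC markers, Pou5f1, Sox2 and Nanog among them, were well above background on all 4 arrays, with a median difference of 0.09. Tdgf1, a Nodal co-receptor, differed by -0.51 ± 0.19, Nanog by -0.37 ± 0.17 and Zfp42 by 0.33 ± 0.16. Of 30 fibroblast markers, read because fibroblasts commonly serve as feeder cells for ESCs, 25 were tested and 19 were above 0, with a median of 0.37. Their summed signal, in units of the array's 75th percentile, was 166 and 167 on the haploid arrays, against 130 and 110 on the diploid arrays, and diploid replicate 2 was lowest. Most of that sum came from Sparc and Fn1, genes of the extracellular matrix, with Sparc alone at 119 and 121 on the haploid arrays, against 92.8 and 77.7 on the diploid arrays. The other 28 genes summed to 17.9 and 14.9 on the haploid arrays, against 10.8 and 8.30 on the diploid arrays, and diploid replicate 2 was the lowest array for 16 of the 25 tested genes. Col3a1, Dcn, Lum and Twist1, named after their values were seen, had differences below 0, from -0.39 to -0.23. With normexp on all spots the median of the fibroblast list was -0.29. Col5a2, Pdgfra and Prrx1 of that list were detected on no array. In that list the chemokine genes Ccl2 and Ccl7 differed by 1.59 ± 0.18 and 1.34 ± 0.17, and Thbs1, a matrix protein, by 1.39 ± 0.26 (adjusted p = 0.0529, 0.0669 and 0.14). For the 11 of 12 macrophage and leukocyte markers with a probe, the summed signal was 4.80 and 4.73 in haploid cells, against 3.38 and 4.07 in diploid cells, while Lyz2, Tyrobp and Cx3cr1 were detected on no array and Ptprc on diploid replicate 2 alone. Of that list, 5 of 6 tested genes were above 0, with Laptm5 at 0.71 ± 0.24, Cd14 at 0.78 ± 0.47 and Adgre1 at -0.61 ± 0.38. The part of these cells in the differences of the interferon-stimulated genes was not tested. In RNA from a whole culture, fewer cells of a type and less RNA per cell cannot be told apart.

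Diploid replicate 2 was the brightest array. Its 75th percentile of signal was 907 intensity units, against 526 to 617 on the others, and 65.4% of its spots were well above background, against 54.2% to 60.2%. It is also the array lowest for the 9 genes with a positive difference at an unadjusted p under 0.05. The part of its brightness in their differences was not tested. No spot was saturated on any array. Levels correlated at 0.991 between haploid arrays, 0.993 between diploid arrays and 0.987 to 0.989 across groups (Pearson, across features, which are not independent replicates).

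**Figure D4:**
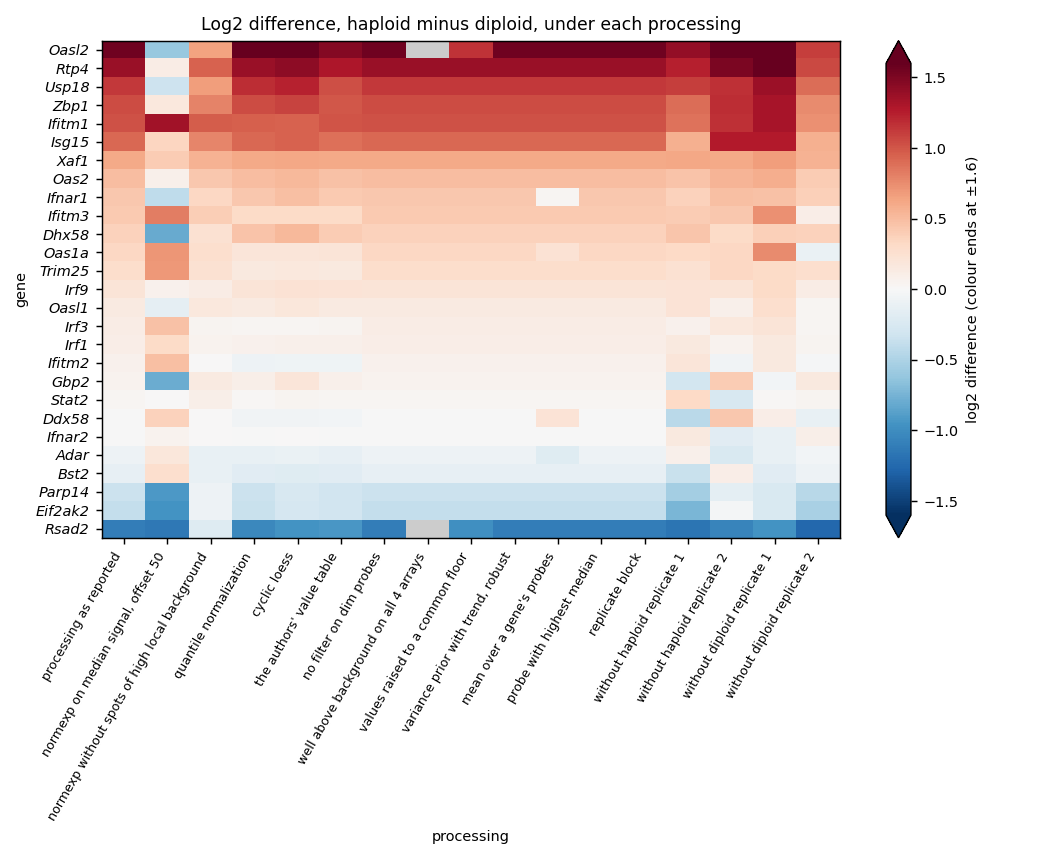
Haploid minus diploid log2 difference of each tested gene (rows) under the processing as reported and under each of 16 alternatives (columns), from blue for lower to red for higher in haploid cells; grey cells were not tested. Oasl2, Rtp4, Usp18, Zbp1, Ifitm1 and Isg15 stay above 0 in the columns shown, except Oasl2 and Usp18 with normexp on all spots, at -0.60 and -0.33, and Rsad2 stays below 0 where it was tested.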

How the data were processed

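Gene expression was measured in 4 samples, 2 haploid and 2 diploid, grouped by their titles. Per the file headers, Agilent Feature Extraction 11.0.1.1 wrote the deposited scanner files, whose processed signal is linear intensity per spot after background subtraction. A deposited value table of the authors also holds intensity, brought to near-equal distributions (column medians 28.3 to 28.4) by steps not given in the sources used here, and served as an alternative. All arrays were on slide 1 and in scan 1. No aligned coordinates were used.

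Control spots and spots with outlier marks were left out (121 to 168 of 43020 per array), and repeated spots were averaged. Log2 signal minus each array's 75th percentile was used. Of 39409 probes, 26037 (66.07%) were named by unversioned accession through RefSeq genes of assembly GRCm38.p6, whereas the array's design names mm9. A probe was kept if each array of 1 group or both detected it, and a gene was read from its probe of highest mean, leaving 17962 features. Well above background is the scanner software's own mark.

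Groups were compared with limma 3.58.1 in R 4.3.3 (lmFit and eBayes, two-sided, Benjamini-Hochberg over all features, threshold 0.05), without replicate numbers as a block. The fit was tested on simulated data. P-values rest on these 4 samples alone, with each gene's variance drawn toward a prior estimated over all features. The number of arrays limits the precision. Samples of 1 number deviated together only weakly (Pearson 0.05 across features), and the labels do not say that they share an origin. The members, gene lists and named genes were chosen with earlier results of these data known. Full statistics were given for up to 10 tested members with non-overlapping groups and the smallest p, array values for members with a difference of at least 0.5 in size and for receptors, Stat2, Irf9, Irf3 and Irf7, and the 3 smallest p of each other list were named with Jak1, Tyk2 and Ifnb1. Other values shown were chosen after they were seen. Files were parsed in Python 3.11.15 (pandas 2.3.3, numpy 2.4.6).

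The scanner files hold no mean signal, so normexp (offset 50) was run on median signal. Alternatives covered background correction, scaling, filter, floor, variance prior, probe choice, the block and leaving out each array.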

Additional observations from a re-analysis of the deposited data

How the results depend on the processing

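With 2 arrays per group, the count of all features passing the test moved from 20 to 0 with normexp on all spots, cyclic loess, a common floor or no filter, to 4 with the value table, to 7 with quantile normalization, to 80 with detection required on all 4 arrays, to 97 with normexp once 9 spots of high local background were dropped (chosen after seeing the data), to 425 with the trended, robust prior, and to 0 to 291 with 1 array left out. No paired design is stated, and with the replicate number as a block 2 features and 0 members passed, with the members' median difference at 0.21. Members passing stayed at 0 except for 5 with the trended, robust prior. Over the other lists, 4 genes passed with detection on all 4 arrays and 4 with normexp without bright-background spots (Isg20, Cxcl10, Ccl2 and Ccl7 in both), 10 with the trended prior (those 4, Sting1, Thbs1, Fbln2, Fbln5 and the members Zbp1 and Usp18), and 0 to 4 with 1 array left out, where the lone array is assumed to vary like the others. Oasl2 and Rsad2 have no value when detection on all 4 arrays is required. The members' median was 0.12 with normexp on all spots and 0.10 to 0.33 with 1 array left out.

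Of the 27 tested members, 14 kept their sign under every alternative run. With normexp on all spots the sign turned for Usp18 (-0.33), Oasl1 (-0.15), Oasl2 (-0.60), Dhx58 (-0.80), Gbp2 (-0.80), Ifnar1 (-0.41), Ddx58 (0.37), Bst2 (0.26), Adar (0.18) and Ifnar2 (0.052). Without the spots of high local background only Ddx58 (0.0015) and Ifnar2 (0.012) turned. Ifitm2 turned with quantile normalization (-0.080), cyclic loess (-0.069) and the value table (-0.069), Ifnar2 with cyclic loess (0.0036) and Ddx58 with the mean over its probes (0.22). With 1 array left out, the range crossed 0 for Oas1a (-0.10 to 0.75), Stat2 (-0.25 to 0.31), Ddx58 (-0.44 to 0.43), Bst2 (-0.35 to 0.10), Ifitm2 (-0.056 to 0.20), Adar (-0.24 to 0.081), Gbp2 (-0.29 to 0.40) and Ifnar2 (-0.18 to 0.16). The cause of these changes was not tested.

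List medians also turned with normexp on all spots, to -0.87 for the ligands, -0.30 for the receptors, -0.31 for the sensors, -0.29 for the other interferon-stimulated genes, -0.29 for the fibroblast markers, -0.20 for the macrophage and leukocyte markers, 0.18 for antigen presentation and 0.035 for the negative regulators. The medians of the ligands, receptors, negative regulators, antigen presentation genes and ESC markers, which lay near 0, changed sign under other settings too.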
